A study of Mus musculus with 18 samples.

Results

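The genes described here encode 10 secreted proteins of blood plasma, namely the fetuins Ahsg and Fetub, histidine-rich glycoprotein (Hrg), transthyretin (Ttr), retinol-binding protein (Rbp4), haptoglobin (Hp), hemopexin (Hpx), orosomucoid (Orm1), apolipoprotein H (Apoh) and vitronectin (Vtn). They were chosen by name and not by a cut on their values, but with earlier results of these data known. Of the 45101 probe sets on the array, 15 map by the platform annotation to exactly 1 of these symbols, 4 of them to Ttr, 2 each to Apoh and Vtn and 1 to each other gene. None of the 15 is shared with another gene in that annotation, and the 10 genes stand among 18193 that could be named by a single symbol.

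The study profiled the developing liver of CD-1 mice, an outbred stock, against adult liver and against the embryo without its liver, on 18 Affymetrix arrays. Embryonic liver was sampled at 6 ages given in days post conception (dpc), namely each day between 10.5 and 14.5 dpc plus 16.5 dpc, with 2 arrays per age. Adult liver came from females 10 weeks old, with 2 arrays. The embryo minus liver, called rest of embryo, was measured with 1 array a stage at 4 of these stages, daily from 10.5 to 12.5 dpc and at 14.5 dpc. No group carries a named allele or drug, each embryonic sample pooled at least 5 embryos, and the sex of the pools is not given, so age and sex cannot be told apart in the adult comparison. For adult liver the treatment entry mentions a partial hepatectomy, but the title calls it a baseline sample and the source calls it normal, and the source was followed. In these bulk samples fewer hepatocytes and less RNA per hepatocyte cannot be told apart.

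Hepatocytes secrete most plasma proteins, and the genes for them come on as hepatoblasts of the liver bud mature. Ttr carries thyroxine and, bound to Rbp4, retinol, and it is also made by the choroid plexus and by yolk sac endoderm. Ahsg, Fetub and Hrg belong to the cystatin superfamily: Ahsg keeps calcium phosphate in solution in plasma, Fetub restrains the protease that hardens the zona pellucida of the egg, and Hrg binds heparin, plasminogen and metal ions. Hp captures free haemoglobin and Hpx captures free haem, while Orm1 carries basic drugs and is, with Hp and Hpx, an acute-phase protein. Apoh binds anionic phospholipids and Vtn is an adhesive protein that stabilises the plasminogen activator inhibitor PAI-1.

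Ahsg, Fetub and Hrg lie side by side on mouse chromosome 16 in the RefSeq order of coding genes, followed by the kininogen genes Kng2 and Kng1. The 250 bases before the start of these 3 neighbours are shown because their time courses in liver differed, and those of Apoh because its time course ran beside that of Ahsg. All 4 are on the plus strand of GRCm38.p6 in RefSeq, at chr16:22891765-22892014 for Ahsg, chr16:22918132-22918381 for the upstream of 2 Fetub starts, chr16:22950822-22951071 for Hrg and chr11:108395047-108395296 for Apoh. Capitals mark matches, on either strand, to the C/EBP letters TTNNGNAA, to the TATA box letters TATAAA, and to a FOXA motif whose letters are TGTTTAC.
Ahsg: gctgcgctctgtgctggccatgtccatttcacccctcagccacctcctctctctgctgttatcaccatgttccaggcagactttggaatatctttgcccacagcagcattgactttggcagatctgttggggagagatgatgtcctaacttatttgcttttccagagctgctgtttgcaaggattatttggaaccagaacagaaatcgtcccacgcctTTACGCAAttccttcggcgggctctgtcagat
Fetub: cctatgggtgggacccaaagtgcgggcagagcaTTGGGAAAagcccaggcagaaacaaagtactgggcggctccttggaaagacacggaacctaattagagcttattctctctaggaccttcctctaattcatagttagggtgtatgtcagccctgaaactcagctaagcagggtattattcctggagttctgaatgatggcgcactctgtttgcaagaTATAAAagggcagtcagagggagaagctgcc
Hrg: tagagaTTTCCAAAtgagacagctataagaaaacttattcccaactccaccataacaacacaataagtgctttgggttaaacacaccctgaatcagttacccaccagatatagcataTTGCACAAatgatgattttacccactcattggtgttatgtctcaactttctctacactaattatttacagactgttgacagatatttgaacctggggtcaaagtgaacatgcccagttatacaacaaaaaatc
Apoh: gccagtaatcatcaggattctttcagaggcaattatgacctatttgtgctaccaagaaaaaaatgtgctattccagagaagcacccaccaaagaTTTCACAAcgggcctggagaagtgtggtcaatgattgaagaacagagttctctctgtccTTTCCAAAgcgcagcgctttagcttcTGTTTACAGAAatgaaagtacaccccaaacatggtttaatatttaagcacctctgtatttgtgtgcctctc
The Ahsg promoter held 1 C/EBP match, 32 to 25 bases before the start, and the Hrg promoter held 2. The upstream Fetub promoter held a TATA box 31 to 26 bases before the start and 1 C/EBP match farther up. Apoh held 3 C/EBP matches and 1 FOXA match, at 71 to 65 bases before the start, which overlaps the nearest C/EBP match. Promoters of 7 of the 10 genes were searched, with 9 starts in all. The RefSeq promoter table held no entry for Hp or Orm1, and Ttr was left out of the search. The counts that follow do not cover these genes. C/EBP letters occurred in 8 of these 9 promoters and in 36.8% of all 32851 promoters in the table, FOXA letters in 3 of 9 and in 3.17%, and TATA letters in 3 of 9 and in 12.4%. The letters searched for HNF1 (GTTAATNAT), HNF4 (CAAAGTCCA) and STAT (TTCNNNGAA) were in none of the 9, against 0.737%, 0.384% and 7.02% of all promoters.

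Values are probe set intensities on the linear scale the authors deposited. Values were raised to a floor of 24.8 (20th percentile over the arrays) before taking log2, and a value above 78.0, the overall median, counts as detected. A gene is called when its Benjamini-Hochberg adjusted p from limma is below 0.05 and its difference reaches 1 log2. Where every array of the lower group lies at or under the floor, the fold is a lower bound. All arrays of a group are given as replicate 1, then replicate 2, and whether the pools came from separate litters is not stated, so the tests weigh only the scatter among these samples, which may be technical.

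Several arrays stand apart in ways that touch the results. The 14 liver arrays hold values below 0 and no exact 0, and the 4 rest-of-embryo arrays hold exact 0s, nothing below 0, and a 99th percentile between 5554 and 5953 against 1325 to 2935 in liver. Tissue and this difference in scaling cannot be told apart. The summed intensity of 7 heart muscle markers was 21638 and 13613 in liver at 10.5 dpc, 3273 and 10284 at 12.5 dpc, and between 198 and 1219 on the other 10 liver arrays. The 3' to 5' ratio of Gapdh, which goes up as RNA degrades, was 2.82 on the first array of 10.5 dpc and 0.744 to 0.886 on the other liver arrays. Hepatocyte markers, summed over 8 genes, came to 9271 and 10718 at 10.5, 37601 and 38038 at 16.5 dpc, and 41570 and 47277 in adult liver, where 7 of the 8 were called higher at 16.5 than at 10.5 dpc. The part of hepatocyte abundance in the results was not tested.

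Ttr, Rbp4, Hpx and Vtn were detected on both liver arrays at 10.5 dpc, the earliest stage sampled. Ahsg and Apoh first passed the detection level on both arrays at 11.5 dpc, and Hp and Fetub at 14.5 dpc. Hrg and Orm1 passed it on no embryonic array. The onset stage was taken under 18 settings, the main one included. The others left out an array or changed the scaling, the summary of probe sets or the detection level. Over the 18 settings the stage did not change for Ttr, Rbp4 and Vtn. It moved by 1 stage, to 12.5 dpc for Ahsg and Apoh and to 11.5 dpc for Hpx, with a stricter detection level, and that of Apoh also with the mean over its probe sets. Hp kept 14.5 dpc wherever it had one, and was never detected in the embryo under the stricter level. The stage of Fetub is uncertain, since it ranged from 10.5 to 14.5 dpc and also went undetected under the stricter level.

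**Figure D1:**
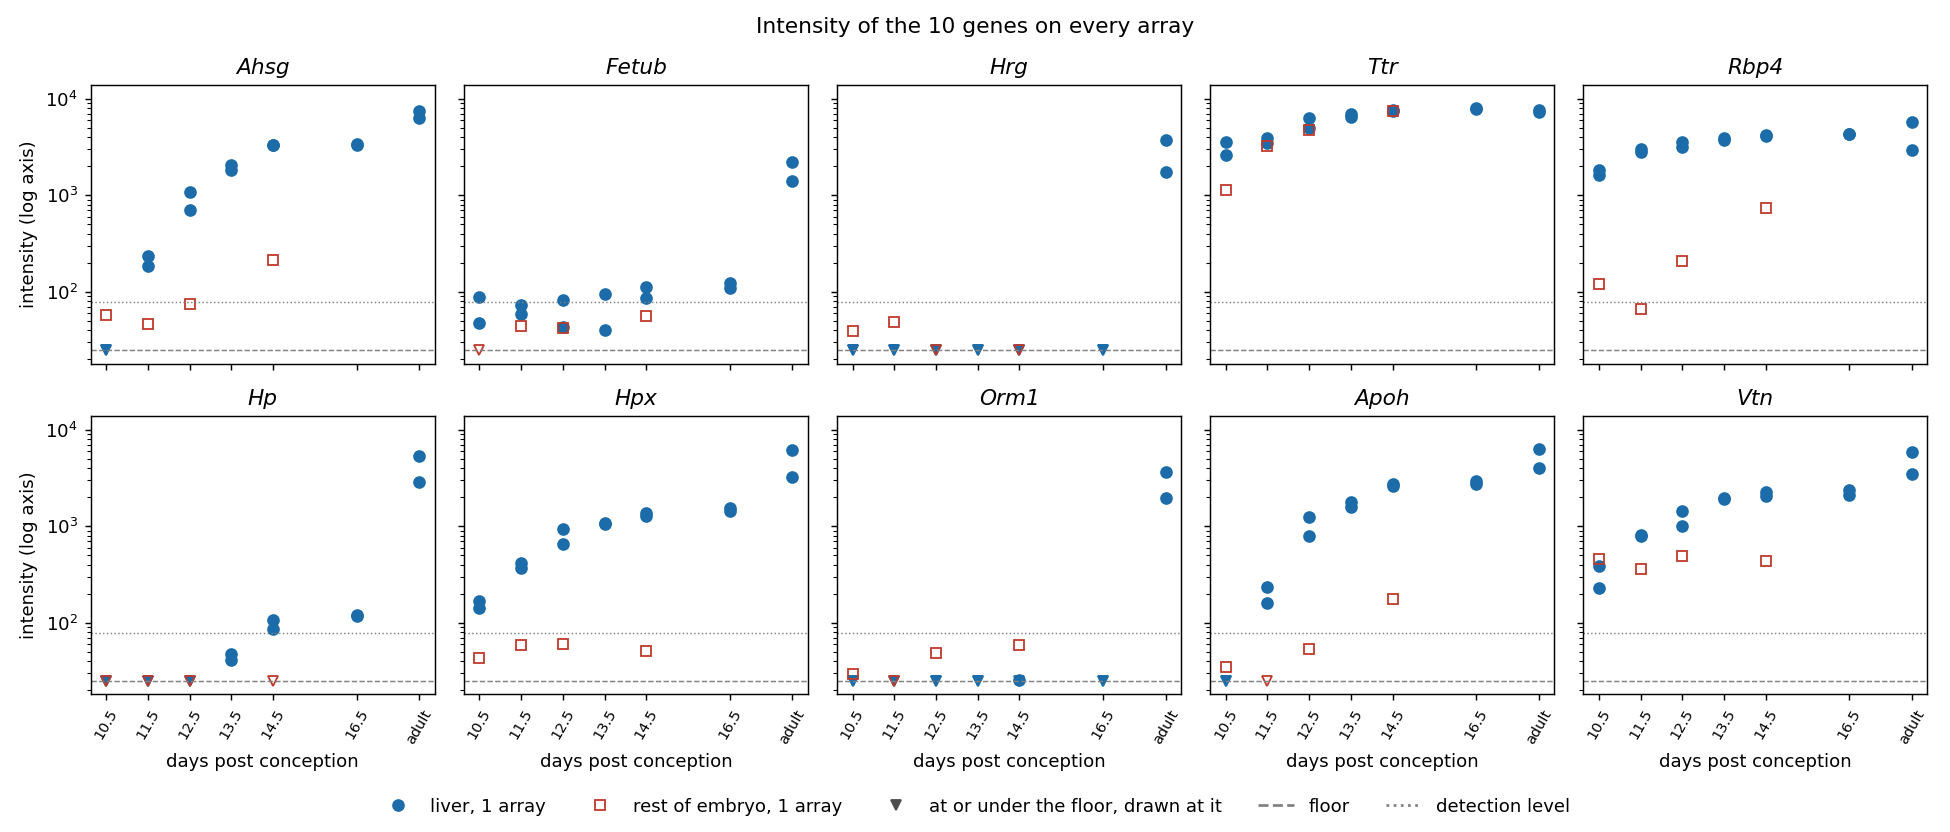
Intensity (log axis) of each gene on every array against days post conception, with adult liver at the right; filled circles are liver arrays, open squares rest-of-embryo arrays, triangles values at or under the floor of 24.8 (dashed), and the dotted line is the detection level of 78.0. Hrg and Orm1 lie at or near the floor on every embryonic liver array and between 1742 and 3788 in adult liver, while Ttr and Rbp4 are already at 1646 or more at 10.5 dpc.

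Ttr, the thyroxine and retinol carrier, already stood at 39.1% of its 16.5 dpc mean when first sampled. Its liver intensity was 3597 and 2642 at 10.5, 3946 and 3459 at 11.5, 6347 and 4962 at 12.5, 6490 and 6935 at 13.5, 7680 and 7582 at 14.5, then 7856 and 8103 at 16.5 dpc. Adult liver read 7416 and 7674, so the adult and 16.5 dpc arrays did not overlap, with the embryonic ones higher, but the difference was only -0.08 log2 (SE 0.18, limma adjusted p = 0.73). From 10.5 to 16.5 dpc Ttr rose by 1.37 log2 or 2.59-fold (SE 0.18, adjusted p = 0.00013). No single step between neighbouring stages was called. Its other 3 probe sets rose by 1.77 to 2.00 log2 over the same interval. Between adult and 16.5 dpc liver they differed by 0.27, 0.07 and -0.22 log2, none called, so the direction was not shared. On its brightest arrays Ttr reached the 99.98th percentile of the array, near the top of the scale.

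Rbp4, which leaves the liver bound to retinol, stood at 40.6% of its 16.5 dpc mean at the first stage. Its intensity was 1849 and 1646 at 10.5, 3032 and 2842 at 11.5, 3620 and 3201 at 12.5, 3795 and 3963 at 13.5, 4125 and 4227 at 14.5, then 4291 and 4316 at 16.5 dpc. The rise over the whole series was 1.30 log2 or 2.47-fold (SE 0.24, adjusted p = 0.0016), with no overlap between the groups at its ends. Against 11.5 dpc, leaving out the 10.5 and 12.5 dpc arrays with high heart markers, the difference was 0.55 log2 (adjusted p = 0.16) and was not called. Adult liver read 2986 and 5801, values on either side of the 16.5 dpc pair, and the difference was -0.05 log2 (SE 0.24, adjusted p = 0.89). The direction of this difference rests on which adult array is used and on the scaling. It was -0.53 log2 without replicate 2 and 0.43 without replicate 1. With quantile normalization it was 0.61 log2 (limma adjusted p = 7.7e-05), under 1 log2.

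Ahsg, the major fetuin of fetal plasma, had the largest embryonic rise of the 10 genes on this floored scale. It read 5.84 and 3.34 at 10.5, both under the floor, then 233 and 186 at 11.5, 1083 and 710 at 12.5, 2046 and 1845 at 13.5, 3326 and 3366 at 14.5, then 3397 and 3352 at 16.5 dpc. At 14.5 dpc it stood at 99.1% of its mean at 16.5 dpc, so nearly the whole rise lay between 10.5 and 14.5 dpc. The step to 11.5 dpc was 3.07 log2 (SE 0.19, adjusted p = 6.95e-06) and the step to 12.5 dpc 2.08 log2 (SE 0.19, adjusted p = 0.00018). From 10.5 to 16.5 dpc the rise was at least 136-fold (7.09 log2, SE 0.19, adjusted p = 1.2e-08). Adult liver read 6347 and 7532, higher than every embryonic array, and 2.05-fold above 16.5 dpc (1.03 log2, SE 0.19, adjusted p = 0.00069). That call is lost without adult replicate 2, where the difference is 0.91 log2.

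Fetub, the next coding gene after Ahsg, stayed near the detection level throughout embryonic liver. It read 88.2 and 47.6 at 10.5, 73.2 and 59.3 at 11.5, 43.0 and 82.8 at 12.5, 95.1 and 40.4 at 13.5, 111 and 86.4 at 14.5, then 111 and 123 at 16.5 dpc. The 16.5 dpc arrays lay above both 10.5 dpc arrays, but the difference of 0.85 log2 (SE 0.45, adjusted p = 0.18) was not called. Adult liver read 1403 and 2218 and did not overlap with any embryonic array. The adult excess over 16.5 dpc was 15.1-fold (3.92 log2, SE 0.45, adjusted p = 2.4e-05), and the embryonic mean at 16.5 dpc was 6.45% of the adult mean.

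Hrg, the next coding gene in the row, gave no signal in the embryo. All 12 embryonic liver arrays read below 0, from -96.0 to -42.7, so no value there has an order. Adult liver read 1742 and 3788. The adult level was at least 103-fold above 16.5 dpc liver (6.69 log2, SE 0.28, adjusted p = 1.0e-08). Kng1, which lies beyond Kng2 in the same row and makes the kinin precursor, read 38.0 and 45.4 at 10.5 dpc, against 1670 and 1684 at 16.5 dpc, a rise of 5.34 log2 (SE 0.30, adjusted p = 5.2e-07). Along this stretch of chromosome 16 the genes at the ends of the row, Ahsg and Kng1, thus rose in embryonic liver, while Fetub and Hrg between them were not called. Kng2 did not pass the filter on low values, and its course is not described.

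The 2 scavengers of red cell debris differed. Hpx read 142 and 168 at 10.5, 421 and 369 at 11.5, 928 and 653 at 12.5, 1058 and 1079 at 13.5, 1357 and 1268 at 14.5, then 1428 and 1563 at 16.5 dpc. It rose 9.65-fold from 10.5 to 16.5 dpc (3.27 log2, SE 0.26, adjusted p = 4.6e-06), with a called step of 1.35 log2 at 11.5 dpc. Adult liver read 3277 and 6161, above every embryonic array, and 3.01-fold above 16.5 dpc (1.59 log2, SE 0.26, adjusted p = 0.00032).

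Hp came on late and stayed dim through 16.5 dpc. It read 3.10 and -3.17 at 10.5, 18.5 and 8.86 at 11.5, then 7.90 and 6.74 at 12.5, all under the floor, then 47.4 and 41.1 at 13.5, 106 and 86.8 at 14.5, then 121 and 117 at 16.5 dpc. Every array from 13.5 dpc on lay above all earlier ones. The rise was at least 4.78-fold (2.26 log2, SE 0.25, adjusted p = 4.2e-05). Adult liver read 2875 and 5334, or 33.0-fold above 16.5 dpc (5.04 log2, SE 0.25, adjusted p = 3.4e-08), so the last embryonic stage had reached 2.89% of the adult mean for Hp and 31.7% for Hpx.

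Orm1, the acute-phase carrier, had no detected embryonic signal. Its 12 embryonic liver arrays read between 8.05 and 25.6, and 11 of them lay at or under the floor. Adult liver read 1968 and 3626, at least 108-fold above 16.5 dpc (6.75 log2, SE 0.23, adjusted p = 2.7e-09). Orm1 is the neighbour of Orm3 in RefSeq and has close relatives in the mouse, so signal of a relative in its probe set cannot be told apart from its own. The related Orm2 read 264 and 209 in adult liver and 23.1 and 31.2 at 16.5 dpc by its own probe set.

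Apoh, a binder of anionic phospholipids that was also known as beta-2-glycoprotein I, first appeared at the same stage as Ahsg. It read -11.9 and 21.2 at 10.5, both under the floor, 233 and 161 at 11.5, 1252 and 794 at 12.5, 1567 and 1800 at 13.5, 2771 and 2621 at 14.5, then 2760 and 2925 at 16.5 dpc. The groups at the ends of the series were far apart, with a rise of at least 114-fold (6.84 log2, SE 0.26, adjusted p = 6.1e-08). Steps of 2.97 log2 to 11.5 dpc and 2.36 log2 to 12.5 dpc were called. Adult liver read 3980 and 6341, above every embryonic array, yet the difference from 16.5 dpc was 0.82 log2 (SE 0.26, adjusted p = 0.019) and under 1 log2. A dimmer Apoh probe set gave a smaller embryonic rise, 1.92 log2, and a larger adult excess, 2.03 log2, and with both probe sets averaged the adult difference was 1.43 log2 and called.

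Vtn, the adhesive protein, was detected in liver from the first stage. At 10.5 dpc the rest of the embryo read 455, above both liver arrays, which also had high heart marker sums. The part of other tissue in this early signal was not tested. In liver Vtn read 226 and 388 at 10.5, 794 and 811 at 11.5, 1438 and 1015 at 12.5, 1964 and 1935 at 13.5, 2247 and 2081 at 14.5, then 2126 and 2351 at 16.5 dpc. Its rise was 7.54-fold (2.92 log2, SE 0.28, adjusted p = 1.8e-05), and the step of 1.44 log2 to 11.5 dpc was called. Adult liver read 3470 and 5904, above every embryonic array, and 2.02-fold above 16.5 dpc (1.02 log2, SE 0.28, adjusted p = 0.010). That adult call is lost without adult replicate 2, at 0.63 log2, and without replicate 1 of 16.5 dpc, at 0.95 log2.

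**Figure D2:**
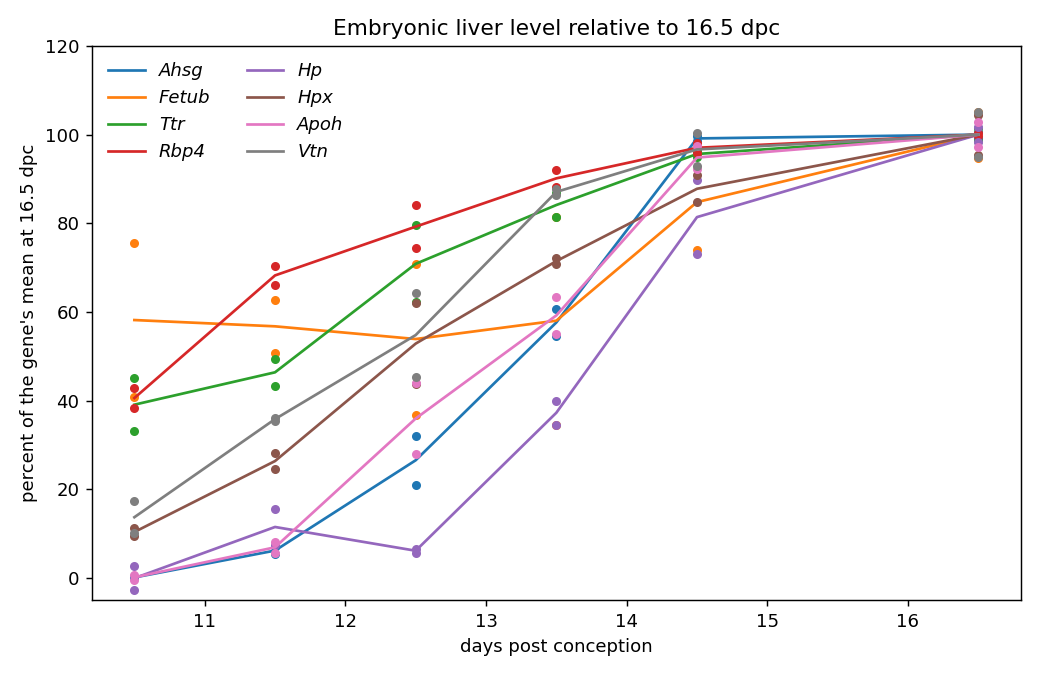
Embryonic liver level of 8 genes as a percentage of the gene's own mean at 16.5 dpc against days post conception; lines join the means of 2 arrays and points are single arrays. At 11.5 dpc Rbp4 stood at 68.2% and Ttr at 46.4%, Vtn at 35.8% and Hpx at 26.4%, and Apoh and Ahsg at 6.94% and 6.20%; Hrg and Orm1 are not drawn because they lay at the floor.

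Of the 10 genes, 7 were called higher at 16.5 than at 10.5 dpc and none lower, where 10.4% of the 14125 genes tested were called higher. The median over the 10 was 1.81 log2 and over all genes tested 0.05. The called genes are Ahsg, Apoh, Hpx, Vtn, Hp, Ttr and Rbp4, and those not called are Fetub, Hrg and Orm1. Ahsg, Apoh and Hp lay at or under the floor at 10.5 dpc and passed the filter only through later arrays. Hrg and Orm1 passed it only through adult arrays, so the count of called genes is a description. With no filter on low values the same genes were called. Without the 10.5 and 12.5 dpc arrays, 6 were called against 11.5 dpc, where Ahsg rose by 4.02 log2, Apoh by 3.87, Hp by 2.26, Hpx by 1.92, Vtn by 1.48 and Ttr by 1.11. All 7 heart markers were called lower at 16.5 than at 10.5 dpc, and the comparison with 11.5 dpc uses none of the arrays where their sum was high.

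Most of the called change fell early. From 10.5 to 11.5 dpc, 4 of the 10 were called higher, Ahsg, Apoh, Vtn and Hpx, with 2.97% of all genes called higher. Without replicate 1 of 11.5 dpc, only Ahsg and Apoh were, and without replicate 1 of 10.5 dpc Vtn was not. Ahsg and Apoh passed the filter only through arrays later than 10.5 dpc, so their calls at this step are a description. From 11.5 to 12.5 dpc, Ahsg and Apoh were called, with 2.68% of all genes. None of the 10 was called from 12.5 to 13.5 dpc, from 13.5 to 14.5 dpc or from 14.5 to 16.5 dpc, where limma called 0.0212%, 0.0425% and 0.00708% of all genes higher. At an unadjusted p under 0.05, 4, 3 and 0 of the 10 differed at these later steps. Ahsg gained 1.15 log2 from 12.5 to 13.5 dpc (adjusted p = 0.063), and Hp 1.12 log2 from 13.5 to 14.5 dpc (adjusted p = 0.37).

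The age at which each gene passed the middle of its own embryonic log2 range, was found by linear interpolation. It was 11.4 dpc for Rbp4, 11.5 for Vtn, 11.7 for Apoh and Ahsg, 11.8 for Hpx, 12.2 for Ttr and 13.8 for Hp. Over the 18 settings the ranges were 11.2 to 11.4 for Rbp4, 11.4 to 11.9 for Vtn, 11.6 to 12.1 for Apoh, 11.6 to 11.8 for Ahsg, 11.6 to 11.9 for Hpx, 12.02 to 12.5 for Ttr and 13.7 to 13.8 for Hp. The ranges of Vtn, Apoh, Ahsg and Hpx overlap one another, and that of Rbp4 overlaps that of Vtn, so these neighbours have no settled order. Ttr was detected before Ahsg and Apoh but passed its own midpoint later than both did in each setting, although its range over the settings overlaps that of Apoh. Hp lay after all of them in each setting. For Ahsg, Apoh and Hp the floor sets the lower end of the range and so moves the midpoint. The 18 settings did not change the percentile that sets the floor, so these ranges leave out its effect.

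At 16.5 dpc the genes stood at unequal distances from their adult levels. As a share of the adult mean, the 16.5 dpc mean was 106% for Ttr, 98.0% for Rbp4, 55.1% for Apoh, 48.6% for Ahsg, 47.8% for Vtn, 31.7% for Hpx, 6.45% for Fetub and 2.89% for Hp. Both Orm1 and Hrg lay at or under the floor at 16.5 dpc, so no share is given for them. These are shares of an average of 2 adult arrays that differ. Ahsg, Apoh and Vtn cannot be ordered among themselves given the spread of the adult pair. All 10 genes read higher on adult replicate 2 than on replicate 1, by a median of 0.82 log2, while 39.9% of all genes tested did. The 99th percentile of that array was 2285 against 1325 on its partner.

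In adult liver 7 of the 10 were called higher than at 16.5 dpc and none lower, where 10.3% of all genes tested were called higher. Of all genes called, 31.2% were higher in the adult, and 43.7% with quantile normalization. The summed intensity of 8 erythroid markers was 19569 and 19892 at 16.5 dpc, against 516 and 504 in adult liver, and 7 of the 8 were called lower in the adult. The part of this change in cell content in the adult differences was not tested. Hrg and Orm1 entered the test only through the adult arrays, so their call is fixed by the filter and is given as a description. Of the other 8, Hp, Fetub, Hpx, Ahsg and Vtn were called, and Apoh, Ttr and Rbp4 were not. Without adult replicate 2, 3 were called, Hp, Fetub and Hpx, since Ahsg and Vtn fell below 1 log2 and Hrg and Orm1 no longer passed the filter. With that array left out and no filter, a setting added after the data were seen, Hrg and Orm1 differed by 6.13 and 6.31 log2 and 5 were called.

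**Figure D3:**
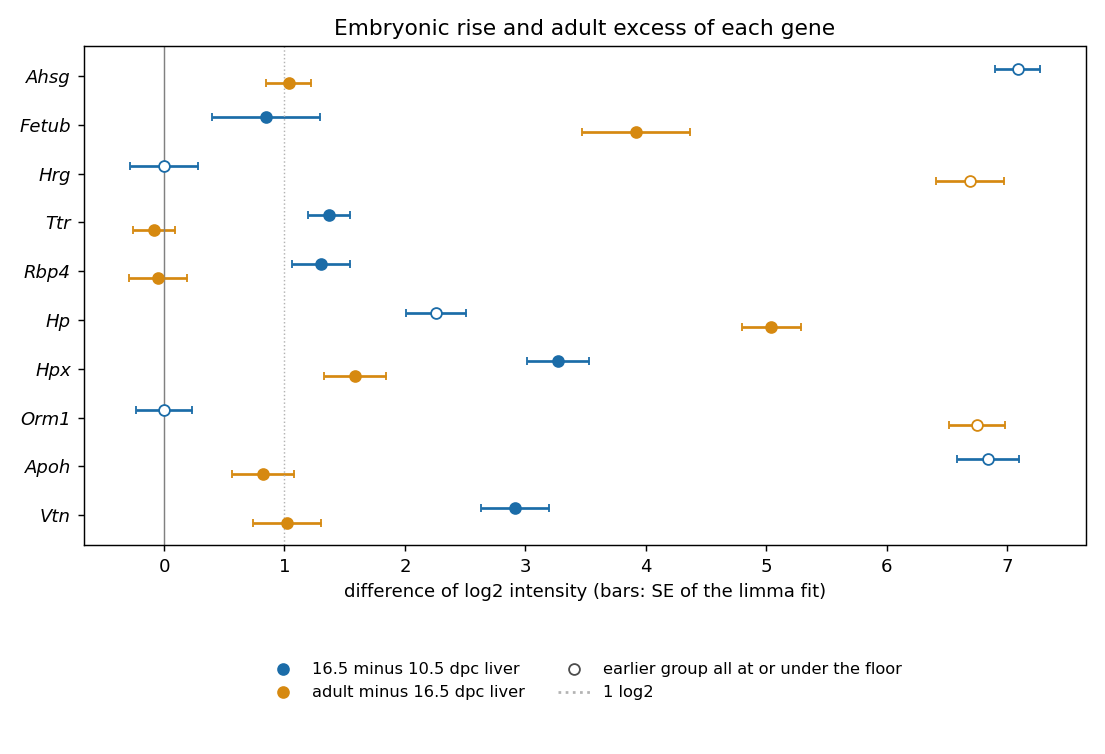
Difference of log2 intensity in liver for each gene, 16.5 minus 10.5 dpc in blue and adult minus 16.5 dpc in orange, each from 2 arrays against 2; bars are the SE of the limma fit, and open circles mark an earlier group with both arrays at or under the floor. Ahsg and Apoh have a large embryonic rise (7.09 and 6.84) and a small adult excess (1.03 and 0.82), Hrg and Orm1 the reverse (0 and over 6.6), and Ttr and Rbp4 an adult difference near 0.

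Signal in the rest of the embryo separated the genes again. Over the 4 stages Ttr read 1132, 3255, 4730, then 7550, so its level there came up to that of liver. Liver minus rest of embryo was 1.44 log2 at 10.5 dpc and 0.18, 0.25 and 0.02 at the later stages, and 0.47 over the 4 stages (SE 0.20, adjusted p = 0.044), which is not called. Another Ttr probe set kept the liver higher at 14.5 dpc, with 5885 and 5506 in liver and 3531 in the rest of the embryo, and its difference over the stages was 0.97 log2. With quantile normalization the first probe set gave 1.54 log2 and was called, so whether Ttr differs between the tissues rests on the scaling.

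Markers of other cells known to make Ttr were measured on the same arrays. The sum of 8 choroid plexus markers there was 1286, 1303, 1175 and 1755 over the 4 stages, with 5 or 6 of the 8 above the detection level on each array and 1, Kl, at or under the floor. The median of all probe sets on these 4 arrays was 91.9 to 107, above the detection level, so most probe sets pass it there. On the liver arrays the sum of the choroid plexus markers ran from 646 to 1895. The sum of 6 yolk sac endoderm markers was 957, 1179, 1207 and 1353 in the rest of the embryo. In liver it was 1590 and 1120 at 10.5 dpc, where Ttr was already detected, and 584 to 828 on the other liver arrays, and 2 of the 5 tested were called lower at 16.5 than at 10.5 dpc. The sum of 8 hepatocyte markers was 1014, 642, 2279 and 5228, and Alb read 122, 105, 303 and 1220. The part of these cells in the Ttr signal was not tested.

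Rbp4 read 122, 65.6, 210 and 734 in the rest of the embryo, under every liver array of its stage. The difference was 3.96 log2 or 15.6-fold over the stages (SE 0.34, adjusted p = 8.2e-07). Hpx stayed at 42.6, 58.8, 59.4 and 50.5, never detected, and differed by 3.25 log2 or 9.53-fold (SE 0.35, adjusted p = 5.9e-06). Apoh read 34.3, 2.68, 53.7 and 175, and Ahsg 57.4, 46.3, 74.9 and 215, both detected at 14.5 dpc alone. Their differences were 2.66 log2 (SE 0.60, adjusted p = 0.0016) for Apoh and 2.12 log2 (SE 0.65, adjusted p = 0.010) for Ahsg. At 10.5 dpc neither gene was detected in either tissue. Apoh, Ahsg and Hpx passed the filter only through liver arrays, so their tissue differences are a description.

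Vtn was, with Ttr, detected on all 4 rest-of-embryo arrays, at 455, 360, 495 and 437. At 10.5 dpc both liver arrays read lower than this, and from 11.5 dpc on both read higher. The difference over the stages was 1.03 log2 (SE 0.36, adjusted p = 0.019), but the other Vtn probe set gave -0.15 log2 (adjusted p = 0.76), the mean of both gave 0.44 log2 (adjusted p = 0.32), and with a replicate block the call is lost (1.01 log2, adjusted p = 0.053). It was also lost on leaving out any one of 3 liver arrays or 3 rest-of-embryo arrays, down to 0.61 log2 without rest of embryo at 14.5 dpc.

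Fetub read 21.8, 44.0, 41.7 and 55.4 in the rest of the embryo, never detected, and differed by 0.83 log2 (SE 0.24, adjusted p = 0.0079), under 1 log2. With quantile normalization the difference was 1.06 log2 and with median centring 1.16, both called. Hp lay at or under the floor on all 4 arrays there, with a highest value of 11.95. Hrg read 39.4, 49.1, 5.64 and 3.29 and Orm1 29.5, 13.1, 48.0 and 59.1, none detected, and neither was tested between the tissues.

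Of the 8 genes tested between the tissues, 5 were called higher in liver, Rbp4, Hpx, Apoh, Ahsg and Vtn, and none lower, where 14% of the 14895 genes tested were called higher. Hpx, Fetub and Hp were detected on no rest-of-embryo array, and Ahsg and Apoh on 1, where the filter asks for 2. These genes passed the filter only through liver arrays, so the count is a description. The median over all genes tested was -1.04 log2, that is, lower in liver. Across all 18193 genes it was -0.78, and -0.07 with quantile normalization. Of all genes called between the tissues 21.4% were higher in liver, and 50.4% with quantile normalization, under which 7 of the 8 were called. Without rest of embryo at 12.5 dpc, or without that at 14.5 dpc, 3 were called, Apoh, Hpx and Rbp4.

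**Figure D4:**
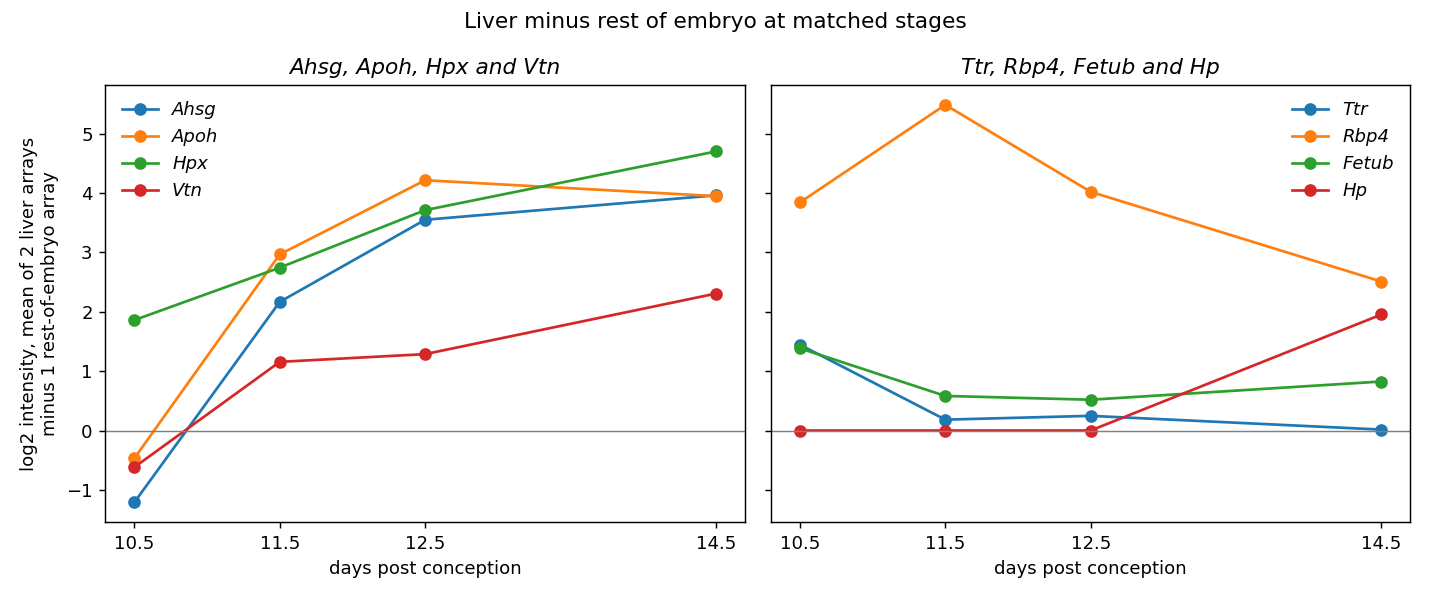
Mean log2 intensity of 2 liver arrays minus that of 1 rest-of-embryo array at each matched stage against days post conception, with 4 genes a panel. The difference for Ahsg goes from 2.17 at 11.5 dpc to 3.96 at 14.5 dpc and for Hpx from 2.74 to 4.70 (the points of Ahsg and Apoh at 10.5 dpc compare signals detected in neither tissue), whereas that for Rbp4 goes from 5.48 at 11.5 dpc to 2.51 and that for Ttr from 1.44 to 0.02.

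The change over stages was also compared between the tissues. The liver slope exceeded that of the rest of the embryo by 1.18 log2 a day for Ahsg (SE 0.28, adjusted p = 0.016), 0.71 for Hpx (SE 0.15, adjusted p = 0.0093), 0.65 for Vtn (SE 0.15, adjusted p = 0.014) and 0.50 for Hp (SE 0.15, adjusted p = 0.047). These 4 of the 8 tested were called at a threshold of 0.25 log2 a day, where 5.09% of all genes tested were called higher. Hpx and Hp were detected on no rest-of-embryo array, and Ahsg and Apoh on 1, where the filter asks for 2. These genes entered the fit only through liver, so their slope differences are a description. The Hp call was lost with a replicate block (adjusted p = 0.063), with either other floor, with no filter, under both other scalings, and on leaving out any one of the 4 rest-of-embryo arrays. Apoh gave 0.97 log2 a day (adjusted p = 0.060). Ttr and Rbp4 gave -0.29 (adjusted p = 0.10) and -0.48 (adjusted p = 0.073), while both rose in the rest of the embryo, by 0.63 and 0.77 log2 a day (adjusted p = 0.0015 and 0.0044). None of the 8 was called without rest of embryo at 14.5 dpc, a setting that leaves 44 genes of all called in place of 2091, and 2 were called, Hpx and Rbp4, without rest of embryo at 10.5 dpc.

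Other genes of the same physiology were read from lists chosen by function. Of 16 other plasma carrier and binding proteins tested, 11 were called higher at 16.5 than at 10.5 dpc and none lower, with a median of 1.96 log2, among them the cortisol carrier Serpina6 (3.47) and Igfbp1 (3.19). In adult liver 5 of the 16 were higher than at 16.5 dpc and 4 lower, with Afp, the fetal albumin relative, at least 264-fold lower. Of 19 acute-phase proteins, 11 were higher at 16.5 dpc and 14 higher in adult liver, with medians of 1.73 and 2.58 log2, and Saa1, Lrg1 and Hamp were higher in the adult without a called embryonic rise, as Orm1 was. Of 10 genes of haemoglobin and haem clearance, 5 were higher at 16.5 dpc, including the biliverdin reductase Blvrb (3.96). In adult liver 3 of the 10 were higher than at 16.5 dpc and 4 lower, with Blvrb at -3.07 log2. Cd163, the macrophage receptor for the haptoglobin complex, was under the floor at 16.5 dpc and read 166 and 106 in adult liver. For comparison, 6.98% of all genes were called lower at 16.5 dpc and 22.8% lower in adult liver.

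Among 13 genes of retinoid and thyroid hormone handling, 1 was called higher and 3 lower at 16.5 dpc, and 7 were higher in adult liver, including Aldh1a1, which makes retinoic acid (at least 145-fold), and the deiodinase Dio1 (4.25 log2). The retinoic acid binders Crabp1 and Crabp2 were lower at 16.5 dpc, with differences of -3.93 log2 for Crabp1 and -3.62 log2 for Crabp2. Both 16.5 dpc arrays of Crabp1 lay under the floor, so its fall is at least that large. Of 11 liver transcription factors, 3 were higher and 1 lower at 16.5 dpc, with Cebpa at 1.59 log2 and Hnf4a at 1.43, and 5 were higher in the adult. Of 5 other cystatin superfamily genes tested, Kng1 and Cst9 were higher and Cst6 lower at 16.5 dpc, and of 9 partners of Vtn, Hrg and Apoh, 4 were higher, including plasminogen, Plg (3.59 log2). Of 14 genes of acute-phase signalling, 3 were higher and 2 lower at 16.5 dpc, and 4 higher and 3 lower in adult liver, where the cytokine inhibitor Socs3 was 2.97 log2 higher. Over all genes tested, 10.4% were called higher and 6.98% lower at 16.5 than at 10.5 dpc. In adult liver 10.3% were called higher and 22.8% lower than at 16.5 dpc.

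For each gene the transcript with the most similar course over the 14 liver arrays, by Pearson correlation of log2 intensity, was found as a description over arrays that share stages. It was Kng1 for both Ahsg (r = 0.994) and Apoh (r = 0.993), Otc for Hpx (0.995), Apof for Vtn (0.996), Spp2 for Ttr (0.986), Ngrn for Rbp4 (0.969) and Cyp3a11 for Hp (0.993). Over the 12 embryonic arrays alone these pairs had r between 0.963 and 0.998. For Fetub the nearest was Hamp, with r = 0.977 over 14 arrays and 0.722 over the embryonic 12. For Hrg and Orm1 the likeness rests on the 2 adult arrays alone, since the embryonic values lie at the floor, and no partner is named.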

How the data were processed

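Total RNA was extracted with Trizol and labelled as biotinylated cRNA, per the labels' protocols, and hybridised to 18 arrays. The authors deposited probe set intensities on a linear scale; their summary method and scaling are not given in the sources used here. Groups follow the source name of each sample, because the age entries of later liver samples repeat 10.5 dpc and the titles of rest-of-embryo samples name liver.

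Of 45101 probe sets, 64 were controls, 34945 had 1 symbol in the platform annotation, 932 several and 9160 none. Where a gene has several probe sets, the one of highest mean log2 value stands for it. It was tested when above 78.0 on at least 2 arrays of a fit. limma 3.58.1 in R 4.3.3 (lmFit, eBayes with trend, two-sided, Benjamini-Hochberg over all genes) was fitted to 14 liver arrays, as 7 groups with 7 residual degrees of freedom. A fit of 12 arrays at the 4 stages sampled in both tissues took stage as a factor, or days for the slope. The fits were tested on simulated data. Arrays at the floor add no spread, so their SE is too small. The number of arrays limits the precision. The text names all 10 genes, up to 2 called genes of each functional list with the largest difference in each comparison, and the nearest transcript of each gene; Orm2 and Hamp (as a list gene) were added after their values were seen. The genes and lists were chosen with earlier results of these data known. Alternatives tried were other floors, filters, scalings and probe set rules, other baselines, a replicate block, and leaving out each array.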

Additional observations from a re-analysis of the deposited data

Results flagged for a closer look

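The change with stage was called different between liver and the rest of the embryo for 4 of the 8 genes tested, by an interaction term of limma between tissue and age. The liver slope was steeper by 1.18 log2 a day for Ahsg, 0.71 for Hpx, 0.65 for Vtn and 0.50 for Hp. Ahsg went from under the floor to 3346 in liver by 14.5 dpc, and from 57.4 to 215 in the rest of the embryo. Hpx and Vtn had nearly flat values outside the liver, with slopes of 0.04 and 0.02 log2 a day. Hp was at or under the floor on all 4 rest-of-embryo arrays, so its slope there is 0 by construction. Hpx and Hp were detected on none of these arrays, and Ahsg on 1, where the filter asks for 2. Ahsg, Hpx and Hp were tested only because of their liver signal, so their values are a description. None of the 4 was called without the rest of the embryo at 14.5 dpc, and only Hpx of them without that at 10.5 dpc. The call for Hp was lost on leaving out any one of the 4 rest-of-embryo arrays or either 11.5 dpc liver array.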

How the results depend on the processing

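Each result was recomputed under changes of floor, filter, scaling, probe set rule, intensity trend and baseline, and with each array left out; at the level of single genes 776 values kept direction and side of the threshold, 33 lost the call, 17 gained it and 12 changed sign. The number of the 10 genes called from 10.5 to 16.5 dpc was 7 in all but the comparison with 11.5 dpc, which gave 6. From 12.5 to 13.5 dpc 1 gene, Ahsg, was called with the filter at the 75th percentile, and from 13.5 to 14.5 dpc 1 gene, Hp, with quantile normalization. Leaving out 1 array gave 2 to 4 called genes from 10.5 to 11.5 dpc, 0 to 1 from 12.5 to 13.5 dpc, 3 to 7 in the adult comparison, 3 to 5 between the tissues and 0 to 5 for the slope.

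Sign changes concern differences that were near 0 before the setting was changed, but some of the recomputed values were not. Adult minus 16.5 dpc liver for Rbp4 was 0.61 log2 with quantile normalization (limma adjusted p = 7.7e-05), under 1 log2. It was 0.0067 with median centring, 0.35 against the mean of 6 stages and 0.016 against the mean of the last 3. It ranged from -0.53 to 0.43 on leaving out an array, and was 0.43 without adult replicate 1 and no filter, a setting chosen after seeing the data. For Ttr it was 0.0024 with quantile normalization, 0.0089 with the mean over probe sets and 0.024 against the last 3 stages. Against the mean of 6 stages it was 0.47 (limma adjusted p = 0.0095). The slope difference of Fetub was 0.13 with the floor at the 40th percentile and ranged from -0.23 to 0.024 on leaving out an array. The cause was not tested.

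Apoh in adult liver, not called in the report, was called with quantile normalization (1.25 log2), without adult replicate 1 (1.16) and against the mean of the last 3 stages (1.10). The Hp slope lost its call under 2 other floors, no filter, both scalings and a replicate block (limma adjusted p from 0.0504 to 0.0713). Over all genes, 5742 were called between the tissues with quantile normalization in place of 9700, and 1221 against 11.5 dpc in place of 2457; from 10.5 to 11.5 dpc the count was 557 to 1723 on leaving out an array in place of 799, from 12.5 to 13.5 dpc 0 to 52 in place of 12, and for the slope 44 to 2203 in place of 2091. The share of called genes that were higher was 31.2% in adult liver and 43.7% with quantile normalization, and 36.3% for the slope and 46.9% with median centring. With a replicate block, 7 genes were called from 10.5 to 16.5 dpc, 7 in adult liver, 4 between the tissues and 3 for the slope. Equal numbers were not taken as pairs, since 21 correlations of replicate differences ran from -0.35 to 0.25 and 5 were over 0.1.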
